A study of Mus musculus with 18 samples.

Results

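The 9 genes described here, of 50600 in the count table, encode parts of the B cell antigen receptor and of the machinery that presents peptides on MHC class II: *Cd79a*, *Cd79b*, *Ms4a1*, *Ighm*, *Cd74*, *H2-Aa*, *H2-Ab1*, *H2-Eb1* and *Ciita*. They were taken by name, as the rows whose Ensembl identifier carries one of these symbols, and all 9 were found. They were followed in RNA-seq of FACS-purified Foxp3+ regulatory T cells (Tregs) from 18 C57BL/6 mice in 4 groups. Thymic CD25 KO Tregs (n = 5) came from "cured" CD25cKO mice of 3 to 4 weeks, in which Cre expressed with YFP from the *Foxp3* locus deletes floxed *Il2ra*, the gene for CD25, and which had received WT splenocytes as neonates. Thymic WT Tregs (n = 5) came from Foxp3/RFP reporter mice of the same age, which carry no such deletion. Splenic CD25 KO Tregs (n = 4) came from mice with floxed *Il2ra*, the tamoxifen-inducible Foxp3eGFP-Cre-ERT2 allele and the R26Y reporter, and splenic WT Tregs (n = 4) from reporter controls. Tamoxifen was given at 7 to 10 weeks of age, and these cells were collected 10 to 14 days later. The CD25 KO therefore existed from the start of *Foxp3* expression in the thymus but for days only in the spleen, and tissue cannot be told apart from mouse model, age and the date in the library names, which all thymic libraries share and all splenic libraries share. Within the thymus the CD25 KO cannot be told apart from the reporter, the Cre allele and the neonatal splenocyte transfer. That transfer is described for the knockout mice only.

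A B cell recognises antigen through membrane immunoglobulin, whose mu heavy chain constant region is encoded by *Ighm*, and signals through the Cd79a and Cd79b chains paired with it. *Ms4a1* encodes CD20, a surface protein of B cells. MHC class II molecules are alpha and beta chain pairs, I-A from *H2-Aa* and *H2-Ab1* and I-E with the beta chain from *H2-Eb1*. The I-E alpha chain gene, *H2-Ea-ps*, is annotated as a polymorphic pseudogene and had at most 1 count in any library here. *Cd74* encodes the invariant chain that guides class II molecules through the cell, and *Ciita* the transactivator needed for transcription of class II genes. B cells, dendritic cells and thymic epithelium carry class II abundantly, whereas mouse T cells are not known for it, so in a sorted Treg library these transcripts have an uncertain cellular source. In bulk RNA, fewer cells of a type and less RNA per cell cannot be told apart.

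The counts on genes ranged from 17239774 to 32639570 per library, and a count of 3 corresponded to at most 0.174 CPM, the unit of counts scaled to the total on genes of each library. *Il2ra* separated the groups as labelled. In the thymus it lay at 524 to 707 CPM in WT and at 98.6 to 290 CPM after the knockout (log2 fold change -1.90, edgeR's quasi-likelihood test, adjusted p = 0.00239), and at 467 to 530 CPM in splenic WT and 170 to 200 CPM in splenic CD25 KO Tregs (log2 fold change -1.49, adjusted p = 1.39e-09). *Cd3e*, a T cell receptor component, lay at 451 CPM or more in every library.

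The members differed widely in level, and *Ighm* was the highest of the 9 in every group. Scaled for exon length, as RPKM (CPM per kilobase of exon), *Ighm* reached 228 ± 29.9 (SD, n = 4) in splenic WT Tregs, followed by *Cd74* at 29.8 ± 3.64, *Cd79b* at 9.18 ± 0.369 and *Cd79a* at 3.71 ± 0.572. *H2-Eb1* followed at 0.851 ± 0.31, and its SD reached toward those of *H2-Aa* at 0.489 ± 0.142 and *H2-Ab1* at 0.48 ± 0.116, which did not differ beyond their spread. *Ciita* lay at 0.355 ± 0.025 and *Ms4a1* lowest. In thymic WT Tregs *Ighm* was again first at 55.0 ± 6.96 RPKM (SD, n = 5) and *Cd74* next at 19.3 ± 5.52, but *Cd79a* (5.43 ± 0.771) now lay above *Cd79b* (2.92 ± 0.453). The 3 class II chains were at 2.07 to 2.23 RPKM with SDs of 1.10 to 1.35, so that their order there was within the spread.

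**Figure D1:**
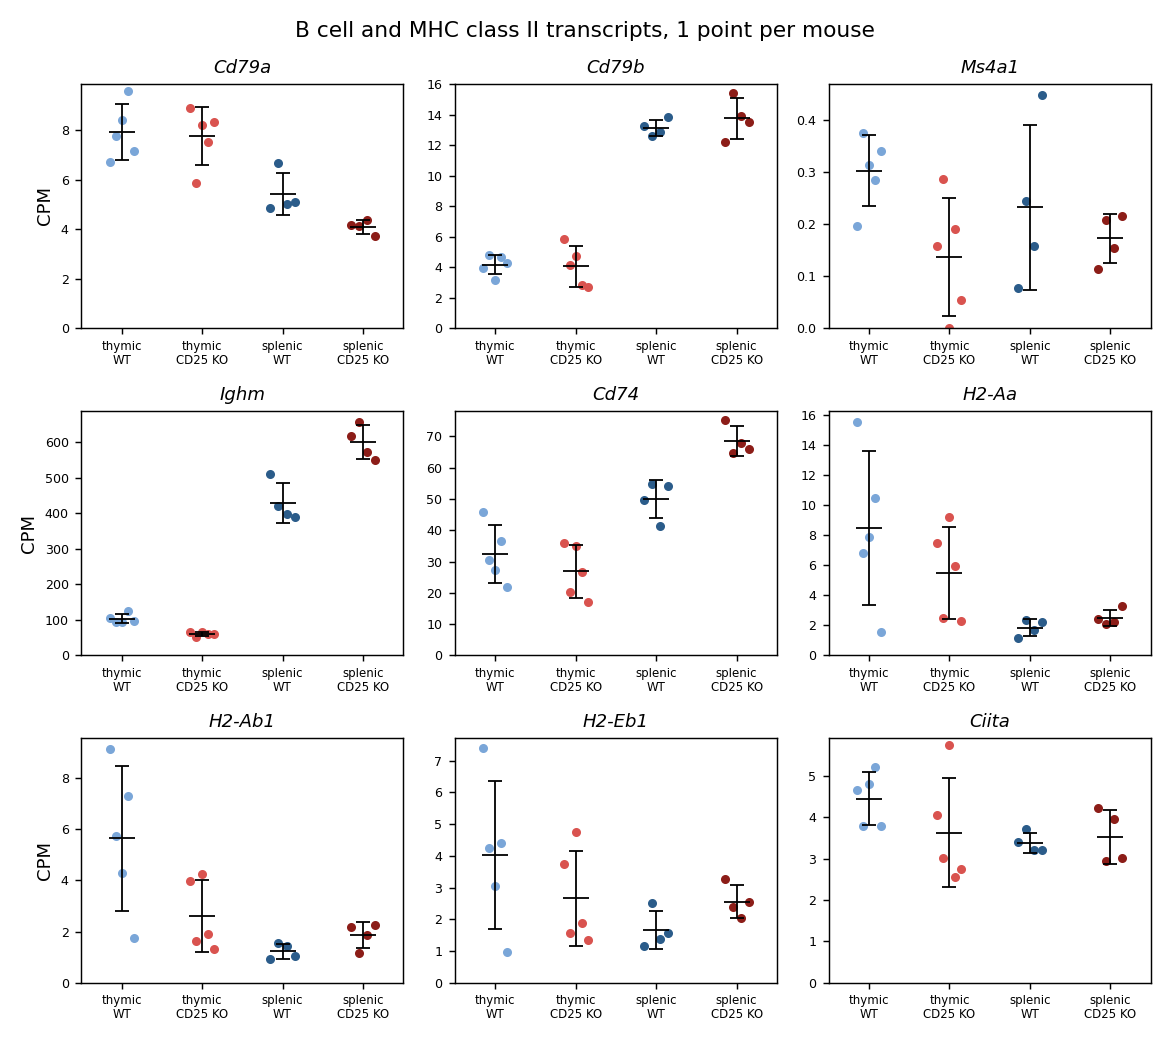
CPM (y axes, linear, from 0) of each of the 9 members in the 4 groups, with 1 point per mouse, the mean as a horizontal mark and the SD as a bar. *Ighm* separates all 4 groups, *Cd74* separates the splenic groups, and the class II chains spread over a wide range in the thymus.

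*Ighm* was the only member that passed the test in both tissues, and it moved in opposite directions. The gene (ENSMUSG00000076617.9) lies on chromosome 12 at 113418558 to 113422730, minus strand, in GRCm38, and the counts are those over its annotated exons. In thymic WT Tregs it was at 106, 95.2, 94.2, 125.7 and 97.8 CPM, and in thymic CD25 KO Tregs at 65.8, 50.8, 66.6, 60.7 and 59.7 CPM. The groups did not overlap, with the CD25 KO mice lower. *Ighm* fell by 0.82 on the log2 scale (SE 0.084, edgeR's quasi-likelihood test, adjusted p = 2.30e-04). It was the 1 member called at FDR below 0.01 among the 8 tested in the thymus, where 6.16% of all 16986 genes tested were called. All 8 tested members had a log2 fold change below 0 there, with a median of -0.50 against -0.0022 over all genes tested. *Cd3e* also fell in the thymus (log2 fold change -0.43, adjusted p = 5.57e-04), from 633 to 672 CPM in WT to 451 to 542 CPM in CD25 KO Tregs. The 12 T cell and Treg genes tested did not share this fall. Of these, 5 had a thymic log2 fold change above 0 and 7 below, with a median of -0.04 and 3 called lower. *Cd3d* was at 251 to 281 CPM (WT) and 254 to 329 CPM (CD25 KO), and *Cd3g* at 340 to 391 and 334 to 395 CPM. As a percentage of *Cd3e*, both scaled for length, *Ighm* was at 30.6 to 42.3% (WT) and 22.3 to 28.8% (CD25 KO), a log2 difference of -0.38 without overlap. The size of that difference depends on *Cd3e* as the reference.

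In splenic WT Tregs *Ighm* was at 512, 419, 398 and 389 CPM, and in splenic CD25 KO Tregs at 617, 658, 573 and 550 CPM. The groups again did not overlap, with the CD25 KO mice now above. *Ighm* rose by 0.44 on the log2 scale (SE 0.077, edgeR's quasi-likelihood test, adjusted p = 8.53e-04). It was 1 of 2 members called among 8 tested in the spleen, against 9.45% of all 17463 genes tested. *Cd3e* rose as well (log2 fold change 0.24, adjusted p = 0.00724), from 546 to 584 CPM to 654 to 728 CPM. As a percentage of *Cd3e* per length, splenic *Ighm* was at 153 to 189% (WT) and 175 to 195% (CD25 KO), a log2 difference of 0.21, and on this scale the groups overlapped. The splenic effect exceeded the thymic effect by 1.27 (SE 0.124, adjusted p = 1.47e-06 in the fit of all 18 samples), and *Ighm* was the only member for which the difference between tissues passed, against 6.98% of 18686 genes. For *Cd3e* the same difference was 0.69 (adjusted p = 9.91e-06).

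The other genes that mark B cells lay at very different levels. In the spleen *Cd22* was at 8.31 to 24.1 CPM over both groups, *Pou2af1* at 5.62 to 26.0, *Ighd* at 6.67 to 13.4 and *Pax5* at 0.968 to 3.57 CPM, whereas *Ms4a1* and *Ebf1* lay below these. *Ms4a1* (ENSMUSG00000024673.9, chromosome 19, 11249675 to 11266241, minus strand) had 0 to 12 counts per library. Its counts were 4, 9, 7, 6 and 8 in WT and 3, 6, 0, 4 and 1 in CD25 KO Tregs of the thymus, 2, 7, 4 and 12 in splenic WT and 3, 6, 4 and 7 in splenic CD25 KO Tregs, and it failed the low-count filter in every comparison. It overlaps *4930526L06Rik* on the opposite strand. Without that filter its log2 fold change was -1.10 in the thymus (adjusted p = 0.242) and -0.46 in the spleen (adjusted p = 0.676), edgeR's quasi-likelihood test, so that a difference was not detectable at this depth. *Ebf1*, a B lineage transcription factor, had 0.179 to 0.686 CPM (WT) and 0.0477 to 0.162 CPM (CD25 KO) in the thymus and at most 0.191 CPM in the spleen.

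Variable segments and a light chain constant region were counted as well. The summed counts over 185 heavy chain variable segments (Ighv) came to 0.709 to 1.90 CPM (WT) and 0.522 to 1.90 CPM (CD25 KO) in the thymus, and 4.27 to 5.14 CPM (WT) and 4.71 to 7.84 CPM (CD25 KO) in the spleen, not scaled for length. Between 6 and 39 of these segments had a count in a library. The 160 kappa segments (Igkv) summed to 0.127 to 2.04 CPM (WT) and 0.108 to 0.811 CPM (CD25 KO) in the thymus, and 2.53 to 3.29 CPM (WT) and 0.797 to 3.00 CPM (CD25 KO) in the spleen, where the median was 3.14 and 2.22 CPM. The 3 lambda segments (Iglv) summed to 0.170 to 2.20 CPM (WT) and 0.324 to 3.13 CPM (CD25 KO) in the thymus and to at most 0.158 CPM in the spleen. Ighv, Igkv and Iglv thus did not share a direction, and none of these sums was tested. *Igkc*, the kappa light chain constant region, was at 0.709 to 2.42 CPM (WT) and 0.216 to 1.05 CPM (CD25 KO) in the thymus, and 3.15 to 6.23 CPM (WT) and 5.69 to 9.65 CPM (CD25 KO) in the spleen. The counts of *Ighm* to *Igkc* stood at geometric means of 85.5 (WT) and 95.7 (CD25 KO) in the thymus (exact permutation test, p = 0.77, two-sided), and at 102 and 82.6 in the splenic groups (exact permutation test, p = 0.286), with overlap in both tissues. The part of B lineage cells in the *Ighm* difference was not tested.

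*Cd79a* and *Cd79b*, which form 1 heterodimer in the B cell receptor, were not called within either tissue. *Cd79a* (ENSMUSG00000003379.7, chromosome 7, 24897381 to 24902197, plus strand) was at 4.86, 6.65, 5.03 and 5.10 CPM in splenic WT and 4.18, 4.12, 4.38 and 3.71 CPM in splenic CD25 KO Tregs. All CD25 KO values were below all WT values, but the log2 fold change of -0.45 (SE 0.137) did not pass the threshold (edgeR's quasi-likelihood test, adjusted p = 0.032). *Cd79b* (ENSMUSG00000040592.11, chromosome 11, 106311341 to 106314762, minus strand) overlapped between the splenic groups, at 12.6 to 13.8 CPM in WT and 12.2 to 15.4 CPM in CD25 KO Tregs (log2 fold change 0.02, SE 0.092, adjusted p = 0.901). The counts of *Cd79b* to *Cd79a* ran from 1.89 to 2.73 in splenic WT and from 2.92 to 3.74 in splenic CD25 KO Tregs, without overlap (exact permutation test, p = 0.0286, adjusted p = 0.098 over the 24 ratio tests). In the thymus *Cd79a* ranged from 6.71 to 9.57 CPM in WT and 5.87 to 8.88 in CD25 KO Tregs (log2 fold change -0.08, adjusted p = 0.703), and *Cd79b* from 3.18 to 4.79 and 2.70 to 5.83 CPM (log2 fold change -0.09, adjusted p = 0.778), and both overlapped, with p = 0.849 in the exact permutation test of their ratio.

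The ratio of *Ighm* to *Cd79a* was compared likewise. The counts of *Ighm* to *Cd79a* were at 11.2 to 15.8 in WT and 7.18 to 8.65 in CD25 KO Tregs of the thymus, and at 63.1 to 105 in splenic WT and 131 to 160 in splenic CD25 KO Tregs. Neither pair of groups overlapped. The exact permutation test gave p = 0.00794 in the thymus and p = 0.0286 in the spleen, the smallest that 5 against 5 and 4 against 4 mice allow, but over the 24 ratio tests made the adjusted p was 0.0635 and 0.098. Some of these ratios were chosen after values were seen: *Ighm* to *Ighd*, *H2-Eb1* to *H2-Ab1* and *H2-Aa* to *H2-Ab1*.

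**Figure D2:**
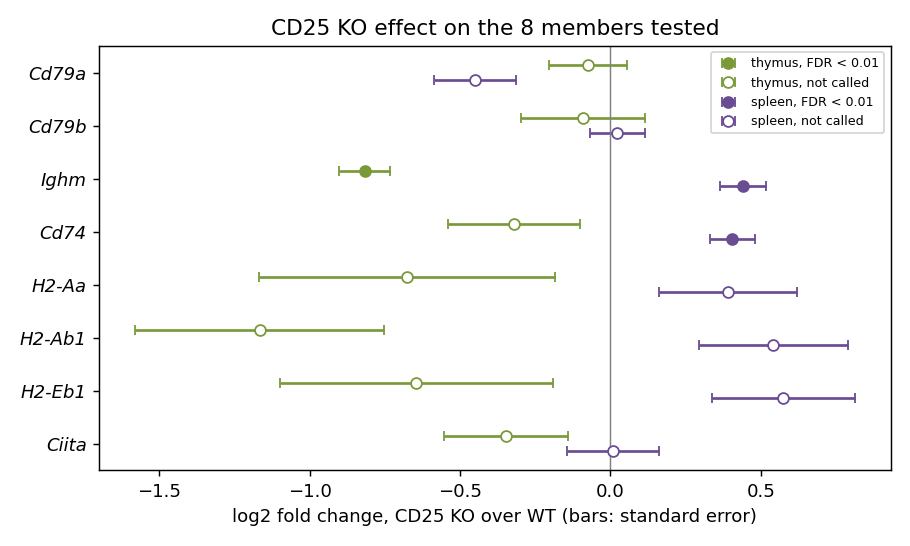
Log2 fold change of CD25 KO over WT (x axis) for the 8 tested members in thymus and spleen, with the standard error as a bar. Filled points passed FDR below 0.01. *Ighm* passed on opposite sides of 0 in the tissues, and *Cd74* passed in the spleen.

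Of 23 other B cell genes, 16 were tested in the thymus and 13 in the spleen, where 6.16% and 9.45% of all genes tested were called. In the thymus 1 was called, *Ighd*, the delta heavy chain constant region next to *Ighm*. It fell by 1.86 on the log2 scale (SE 0.30, edgeR's quasi-likelihood test, adjusted p = 0.00253), from 1.75 to 2.51 CPM in WT to 0.315 to 1.22 CPM in CD25 KO Tregs. *Ighm* to *Ighd* thereby stood at geometric means of 49.1 (WT) and 113 (CD25 KO) in the thymus without overlap (exact permutation test, p = 0.00794, adjusted p = 0.0635), and at 53.9 and 49.8 in the splenic groups. In the spleen 3 were higher and 1 lower. *Pou2af1*, a co-activator of octamer-binding factors, rose by 1.55 on the log2 scale (adjusted p = 3.39e-06), *Pax5*, a B lineage transcription factor, by 1.04 (adjusted p = 0.00352) and *Cd22*, an inhibitory receptor of B cells, by 0.94 (adjusted p = 2.25e-04), all in edgeR's quasi-likelihood test. *Cd72*, another receptor of B cells, fell by 0.77 (adjusted p = 3.04e-05). DESeq2 called 5 higher in the spleen, adding *Igkc* and *Ighd*, which had log2 fold changes of 0.73 (adjusted p = 0.0169) and 0.53 (adjusted p = 0.018) in edgeR's quasi-likelihood test, and the same 1 lower. In the thymus it called *Cr2*, a complement receptor, higher besides *Ighd* lower. Over all genes DESeq2 called 2763 of 16986 in the thymus and 2146 of 17463 in the spleen. *Cd22* was at 8.31 to 15.1 CPM in splenic WT and 17.3 to 24.1 CPM in splenic CD25 KO Tregs, but at or below 0.392 CPM in every thymic library. Summed over the 23 genes, the level was 123 to 155 CPM (WT) and 143 to 195 CPM (CD25 KO) in the thymus, and 123 to 136 CPM (WT) and 150 to 169 CPM (CD25 KO) in the spleen. In the thymus this sum overlapped between the groups and had its higher median, 178 against 136 CPM, in the CD25 KO mice, the group with less *Ighm*, but *Ralgps2*, a guanine nucleotide exchange factor, alone made up 88.2 to 147 CPM of it in the thymus.

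Among 11 plasma cell genes, 4 were tested in the thymus and 7 in the spleen. In each tissue 1 was called, against 6.16% (thymus) and 9.45% (spleen) of all genes tested. *Xbp1*, a transcription factor of secretory cells that other cells also use, fell by 0.42 in thymic CD25 KO Tregs (adjusted p = 0.00354), and *Txndc5*, a protein folding enzyme, rose by 0.23 in splenic CD25 KO Tregs (adjusted p = 0.00557; edgeR's quasi-likelihood test). *Jchain*, the joining chain of secreted antibody, was at or below 1.50 CPM in all 18 libraries.

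**Figure D3:**
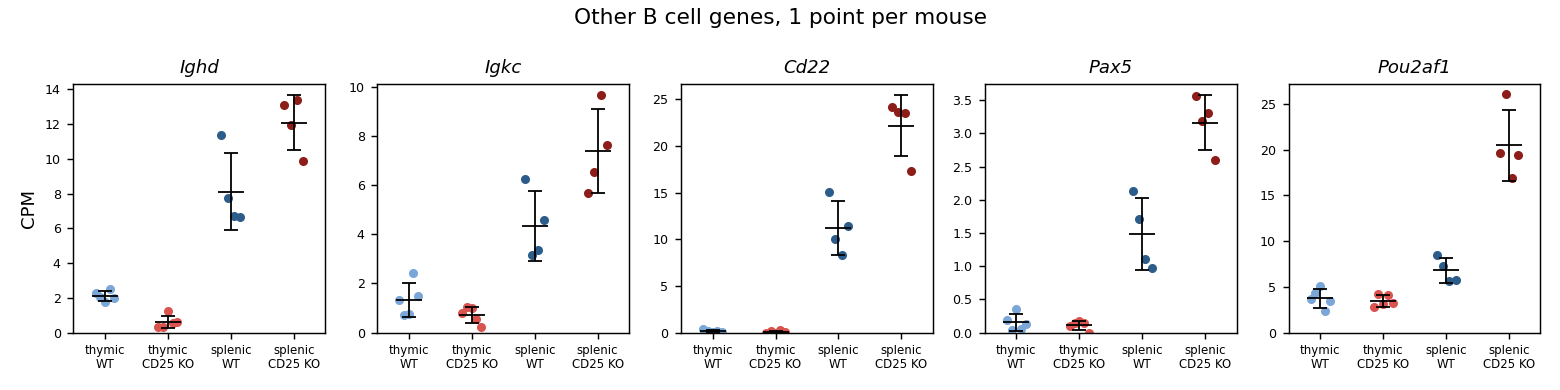
CPM (y axes, linear, from 0) of 5 other B cell genes in the 4 groups, with 1 point per mouse, the mean as a horizontal mark and the SD as a bar. *Cd22*, *Pax5* and *Pou2af1* lie higher in splenic CD25 KO than in splenic WT Tregs, and *Ighd* lies lower in thymic CD25 KO than in thymic WT Tregs.

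The class II chains are encoded side by side on chromosome 17: *H2-Ab1* (ENSMUSG00000073421.5) at 34257689 to 34269419 on the plus strand, *H2-Aa* (ENSMUSG00000036594.14) at 34282744 to 34287823 on the minus strand and *H2-Eb1* (ENSMUSG00000060586.10) at 34305867 to 34316674 on the plus strand. Their promoters are known for a shared set of boxes, X1, X2 and Y, on which the complex that recruits CIITA assembles. RefSeq promoter windows (GRCm38.p6) were matched for 3 of the 9 members, and the 2 of class II genes are shown because those chains are the members that varied together most closely. Each is the 250 bases before the start of the gene, and capitals mark the long Y box CTGATTGG, the X2 box TGACGTCA and, on the opposite strand, the reverse complement of the Y core ATTGG.
H2-Aa promoter, chr17:34287824-34288073, minus strand: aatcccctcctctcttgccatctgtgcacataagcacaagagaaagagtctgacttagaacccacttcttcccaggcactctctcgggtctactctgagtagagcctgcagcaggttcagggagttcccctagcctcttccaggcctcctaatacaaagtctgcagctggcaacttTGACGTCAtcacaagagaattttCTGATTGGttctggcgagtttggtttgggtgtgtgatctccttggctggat
H2-Eb1 promoter, chr17:34305617-34305866, plus strand: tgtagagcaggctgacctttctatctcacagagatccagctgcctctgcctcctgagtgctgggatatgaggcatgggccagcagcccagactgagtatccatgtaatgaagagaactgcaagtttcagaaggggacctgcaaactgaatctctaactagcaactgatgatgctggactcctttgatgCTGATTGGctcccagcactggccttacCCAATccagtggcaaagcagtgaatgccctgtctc
CTGATTGG lay 51 to 44 bases before the start in *H2-Aa* and 62 to 55 bases before it in *H2-Eb1*, and 3.83% of 32851 promoter windows hold it on either strand. TGACGTCA lay 74 to 67 bases before the start of *H2-Aa*, and 1.55% of windows hold it. The shorter ATTGG, part of the long Y box, is in 33.8% of windows. The X1 letters searched, CCTNGNAAC, are in 4.06% of windows and in neither of these. Only exact letters were searched, so a box that differs from them would have been missed. A match is a description of the letters, not of factor binding.

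In the thymus the class II chains differed more between mice of a group than between the groups. *H2-Aa* was at 15.5, 6.84, 7.85, 10.5 and 1.57 CPM in WT and 7.46, 2.48, 9.22, 5.93 and 2.27 CPM in CD25 KO Tregs of the thymus. *H2-Ab1* was at 9.16, 5.75, 4.30, 7.30 and 1.74 CPM in WT and 3.99, 1.62, 4.23, 1.90 and 1.30 CPM in CD25 KO Tregs. WT mouse 1 was the highest and WT mouse 5 the lowest of its group for both, and the groups overlapped. The log2 fold change was -0.68 for *H2-Aa* (SE 0.493, adjusted p = 0.337), -1.17 for *H2-Ab1* (SE 0.414, adjusted p = 0.0589) and -0.65 for *H2-Eb1* (SE 0.453, adjusted p = 0.317) in edgeR's quasi-likelihood test, and none passed. *H2-Eb1* spanned 0.977 to 7.40 CPM in WT and 1.35 to 4.76 CPM in CD25 KO Tregs.

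The ratios between the chains varied less than their levels. The counts of *H2-Eb1* to *H2-Ab1* ran from 0.561 to 0.807 in WT and from 0.934 to 1.12 in CD25 KO Tregs of the thymus, without overlap (exact permutation test, p = 0.00794, adjusted p = 0.0635). *H2-Aa* to *H2-Ab1* overlapped, at geometric means of 1.37 and 2.02 (exact permutation test, p = 0.0476, adjusted p = 0.127). In the spleen *H2-Eb1* to *H2-Ab1* overlapped between the groups, at 1.31 in WT and 1.40 in CD25 KO Tregs (exact permutation test, p = 0.714).

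The class II members varied from mouse to mouse together with a gene of plasmacytoid dendritic cells. *Siglech*, a surface lectin that marks these cells, was at 22.0, 6.92, 13.8, 13.7 and 3.48 CPM in WT and 34.0, 9.40, 35.0, 19.8 and 1.73 CPM in CD25 KO Tregs of the thymus. In each group the mice lowest in *Siglech*, such as mouse 5, were low in *H2-Aa* as well. CD25 KO mice 1 and 3 had more *Siglech* than any WT mouse, but 7.46 and 9.22 CPM of *H2-Aa* against 15.5 CPM in WT mouse 1. All 9 plasmacytoid dendritic cell markers were tested in the thymus and none was called by edgeR's quasi-likelihood test or DESeq2, with 0 at an unadjusted p under 0.05, and their summed level was 312 to 399 CPM in WT and 330 to 478 CPM in CD25 KO Tregs, most of it from *Ccr9* and *Pacsin1*. In the spleen *Siglech* was at or below 0.149 CPM. The 8 tested of 14 monocyte and macrophage markers all had thymic log2 fold changes below 0, with a median of -1.23, none called by either tool and 3 at an unadjusted p under 0.05. Their summed level was 13.8 to 58.8 CPM in WT and 8.16 to 34.0 CPM in CD25 KO Tregs of the thymus. The 8 thymic epithelial markers summed to 8.07 to 10.7 and 8.25 to 14.1 CPM, with 3 tested, none called by either tool and 0 at an unadjusted p under 0.05. The part of these cells in the class II differences was not tested.

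**Figure D4:**
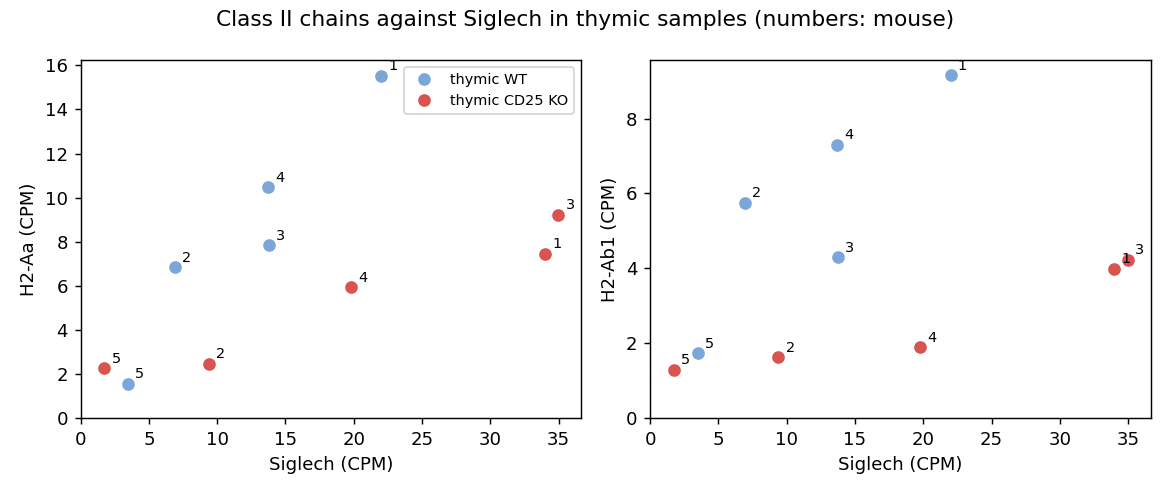
*H2-Aa* (left) and *H2-Ab1* (right) against *Siglech* in the 10 thymic libraries, all in CPM on linear axes from 0, with the mouse number beside each point. Mouse 5 lies at the low end in both groups, and CD25 KO mice 1 and 3 have the most *Siglech* without the most *H2-Aa*.

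Expressed as deviations of log2 CPM from the group means over all 18 samples, the 3 chains had Pearson's r of 0.91 to 0.93 with each other, *Cd74* 0.85 to 0.88 with the chains and *Ciita* 0.52 to 0.66. *Siglech* had r of 0.83 with *H2-Aa* and 0.85 with *Cd74*, but 0.73 with *H2-Ab1*, 0.74 with *H2-Eb1* and 0.52 with *Ciita*. Of 16153 other genes, those most like the mean of the 5 class II members were *Irf8* (r = 0.95), a transcription factor of dendritic cells and B cells, *Ctsh* (0.94), a lysosomal protease, *Zeb2* (0.91), *P2ry13* (0.91), *Kmo* (0.90), *Klk1* (0.89), *Plek* (0.88) and *Cyb561a3* (0.88). For *Irf8* r was 0.96 over the 10 thymic and 0.84 over the 8 splenic samples. In the spleen *Ctsh* had 0.71, *P2ry13* 0.68, *Cyb561a3* 0.72 and *Zeb2* 0.48. For *Kmo* r was 0.96 (thymus) and 0.09 (spleen), for *Plek* 0.94 and 0.12 and for *Klk1* 0.95 and -0.19. The likeness of *Kmo*, *Plek* and *Klk1* was therefore one of the thymus. Splenic *Siglech* lay at or below 0.149 CPM, so that its r rests mainly on the thymic libraries. The 4 B cell members had no such shared pattern. Their pairwise r lay between -0.57 and 0.44, and the gene most like their mean, *Gm16014*, reached r = 0.81, followed by *Msrb3* (0.79) and *P3h1* (0.78). The lowest r was that of *Ms4a1* with *Ighm*, and *Ms4a1*, with 0 to 12 counts per library, also enters that mean. Between *Cd79a*, *Cd79b* and *Ighm* r was 0.08 to 0.44. These values describe libraries that share depth and handling within a group, and carry no test.

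**Figure D5:**
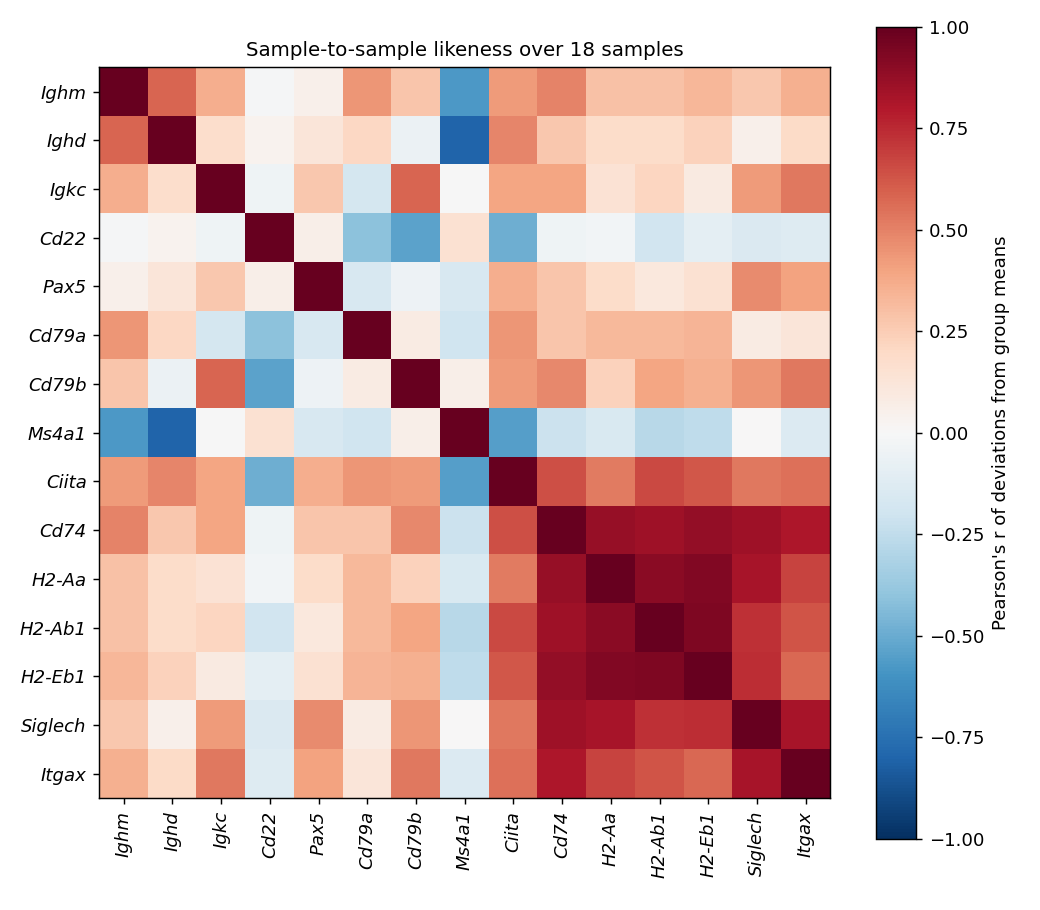
Pearson's r (colour scale, -1 to 1) between deviations of log2 CPM from the group means over 18 samples for the 9 members and 6 other marker genes. The class II chains, *Cd74*, *Siglech* and *Itgax* form a block of high r, from 0.57 to 0.93 between different genes, and the B cell members do not.

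*Cd74* was the class II member that passed the test in the spleen. Splenic WT Tregs had 49.8, 54.9, 41.5 and 54.0 CPM and splenic CD25 KO Tregs 75.2, 64.7, 67.8 and 65.8 CPM. All CD25 KO mice lay above all WT mice, and *Cd74* rose by 0.40 on the log2 scale (SE 0.075, edgeR's quasi-likelihood test, adjusted p = 0.00137). With all 18 samples in 1 fit, which share an estimate of the spread with the more variable thymic libraries, the adjusted p was 0.218. The chains were higher on average in the same mice but did not pass. *H2-Aa* was at 1.19 to 2.35 CPM in splenic WT and 2.11 to 3.28 in splenic CD25 KO Tregs (log2 fold change 0.39, adjusted p = 0.272), *H2-Ab1* at 0.918 to 1.54 and 1.14 to 2.24 CPM (0.54, adjusted p = 0.154), and *H2-Eb1* at 1.15 to 2.52 and 2.04 to 3.26 CPM (0.57, adjusted p = 0.116).

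*Cd74* in the thymus was at 46.0, 30.6, 27.4, 36.7 and 21.7 CPM in WT and 35.8, 20.1, 34.9, 26.6 and 16.9 CPM in CD25 KO Tregs. The groups overlapped (log2 fold change -0.32, SE 0.219, adjusted p = 0.304). The difference between the tissues was 0.74 for *Cd74* (SE 0.265, adjusted p = 0.0606) and 1.72 for *H2-Ab1* (SE 0.560, adjusted p = 0.0405), and neither passed FDR below 0.01 in edgeR's quasi-likelihood test. For *H2-Ab1* it passed without thymic WT mouse 5, at an adjusted p of 0.00925.

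Single genes from the marker lists of other cell types rose with *Cd74* in the spleen, where 9.45% of all genes tested were called. *Lyz2*, lysozyme of macrophages, rose by 1.03 on the log2 scale (adjusted p = 0.00132), as 1 of 11 tested of 14 monocyte and macrophage markers, whose summed level was 26.1 to 43.2 CPM in WT and 37.8 to 46.1 CPM in CD25 KO Tregs. Of these 11 markers, 6 had a log2 fold change above 0 and 5 below, with a median of 0.06. *Runx2* was the 1 called of 6 tested plasmacytoid dendritic cell markers, and rose by 0.66 (adjusted p = 6.14e-05, edgeR's quasi-likelihood test). Of these 6 markers, 2 had a log2 fold change above 0 and 4 below, with a median of -0.02. *Runx2* was at 32.9 to 47.2 CPM in splenic WT and 60.6 to 68.9 CPM in splenic CD25 KO Tregs. *Siglech*, of the same list, was at or below 0.149 CPM there. None of the 4 tested conventional dendritic cell markers was called by edgeR's quasi-likelihood test or DESeq2, with 2 at an unadjusted p under 0.05, and their list, summed over 12 genes, was at 131 to 164 and 168 to 224 CPM. Most of this sum came from *Cd83*, at 81.2 to 114 CPM in WT and 111 to 165 CPM in CD25 KO Tregs, whereas *Itgax* was at or below 0.653 CPM in the spleen. The part of these cell types in the *Cd74* difference was not tested. T cell genes moved with *Cd74* too. Of 12 tested T cell and Treg genes, 6 were higher and 2, *Il2ra* and *Foxp3*, lower in splenic CD25 KO Tregs, with 11 at an unadjusted p under 0.05 and a median log2 fold change of 0.23. The 3 with the largest increase were *Ikzf2* (0.37, adjusted p = 8.59e-04), *Cd4* (0.32, adjusted p = 6.75e-04) and *Trac* (0.29, adjusted p = 0.00141; edgeR's quasi-likelihood test), and *Foxp3*, the lineage factor of Tregs, fell by 0.55 (adjusted p = 6.90e-06). As a percentage of *Cd3e* per length, *Cd74* was at 17.9 to 24.1% in splenic WT and 21.6 to 26.7% in splenic CD25 KO Tregs, a log2 difference of 0.18 with overlap.

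*Ciita* did not follow *Cd74*. It was at 3.40, 3.71, 3.21 and 3.20 CPM in splenic WT and 4.21, 2.94, 3.96 and 3.00 CPM in splenic CD25 KO Tregs, with overlap (log2 fold change 0.01, SE 0.153, edgeR's quasi-likelihood test, adjusted p = 0.981). The counts of *Ciita* to *Cd74* were 0.0593 to 0.0773 in splenic WT and 0.0454 to 0.0584 in splenic CD25 KO Tregs, without overlap (exact permutation test, p = 0.0286, adjusted p = 0.098). In the thymus *Ciita* ranged from 3.78 to 5.21 CPM in WT and 2.56 to 5.74 CPM in CD25 KO Tregs (log2 fold change -0.35, adjusted p = 0.238). None of 7 transcription factors of class II genes was called within a tissue by edgeR's quasi-likelihood test, with 3 at an unadjusted p under 0.05 in the thymus and 2 in the spleen. DESeq2 called 2 in the thymus, *Creb1* higher and *Nfya* lower, and 0 in the spleen. Over all genes it called 2763 of 16986 in the thymus and 2146 of 17463 in the spleen. The gene (ENSMUSG00000022504.9, chromosome 16, 10480059 to 10528418, plus strand) overlaps *Dexi* on the opposite strand, and *H2-Eb1* overlaps *Gm20513* likewise, so that reads of the overlapping stretches may not be told apart.

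Of 11 other genes of the class II pathway, 9 were tested in each tissue, where 6.16% (thymus) and 9.45% (spleen) of all genes tested were called. None passed edgeR's quasi-likelihood test in the thymus, with 6 at an unadjusted p under 0.05 and 1, *Ifi30*, called lower by DESeq2, and 1 passed in the spleen. *H2-Ob*, the beta chain of the H2-O modulator of peptide loading, fell by 0.40 in splenic CD25 KO Tregs (adjusted p = 0.00641), from 21.2 to 24.3 CPM to 15.1 to 19.8 CPM, opposite to *Cd74*. *H2-DMb2*, a beta chain of the peptide-loading molecule H2-DM, had log2 fold changes of -0.67 in the thymus (adjusted p = 0.0594) and 0.57 in the spleen (adjusted p = 0.0512), and the difference of 1.25 between tissues passed (adjusted p = 0.00577; edgeR's quasi-likelihood test).

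The tissues of the WT mice differed in 6 of the 8 members tested, 3 in each direction, where 40.4% of all 18686 genes tested were called. Splenic WT Tregs had more *Ighm* (log2 fold change 2.12, adjusted p = 9.81e-14), *Cd79b* (1.73, adjusted p = 3.36e-08) and *Cd74* (0.70, adjusted p = 0.00337), but less *H2-Ab1* (-2.10, adjusted p = 1.87e-04), *H2-Aa* (-2.09, adjusted p = 9.65e-04) and *Cd79a* (-0.47, adjusted p = 0.00532), in edgeR's quasi-likelihood test. Both the receptor pair and the class II set were therefore split between the directions. For *Cd74* and *H2-Aa* single mice of the WT groups overlapped. *H2-Eb1* (-1.18, adjusted p = 0.0232) and *Ciita* (-0.31, adjusted p = 0.168) did not pass. The call of *Cd79a* was lost without splenic WT mouse 1, 3 or 4 (adjusted p = 0.0133 to 0.0249), and that of *Cd74* without thymic WT mouse 3 or 5 or splenic WT mouse 2 or 4 (adjusted p = 0.0121 to 0.0138). *H2-Eb1* passed without thymic WT mouse 5 (adjusted p = 0.00178). The invariant chain gene stood well above the chains in the spleen: *H2-Aa* to *Cd74* was 0.0238 to 0.0427 in splenic WT Tregs and 0.0723 to 0.338 in thymic WT Tregs.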

How the data were processed

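Total RNA of sorted Tregs was sequenced after ribosomal RNA depletion (KAPA RNA HyperPrep with RiboErase). The authors' deposited values are raw counts per gene. The submitters' processing notes name STAR 2.5.0b, featureCounts 1.5.0 and the build GRCm38 (mm10); the strand setting of the counting is not given in the sources used here. Symbols, exon lengths and positions came from GENCODE M21, which named 50376 of 50600 identifiers.

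Counts were tested with edgeR 4.0.16 in R 4.3.3 (TMM, filterByExpr, glmQLFit, glmQLFTest) within each tissue, and across 18 samples for differences between tissues and between WT tissues; p-values were Benjamini-Hochberg adjusted over all genes tested, and genes at FDR below 0.01 were called. DESeq2 1.42.0 was an alternative. CPM and RPKM use the total of counts on genes. Deviations used log2 CPM with a prior count of 2. Ratios were compared by two-sided exact permutation tests of log2 ratios. The fits were tested on simulated data.

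Groups follow the labelled tissue and genotype, with 1 mouse per sample; p-values measure the spread between these samples. The members, the 14 gene lists and the tests were chosen with earlier results of these data known. All 9 members were named; of each other list, up to 3 called genes in each direction per tissue with the largest log2 fold change, and the 8 genes most like each member set. Label and cell type markers of those lists (*Il2ra*, *Cd3e*, *Ebf1*, *Igkc*, *Jchain*, *Itgax*) were also named. Levels relative to *Cd3e*, and *Siglech*, *Cr2*, *H2-DMa*, *Ccr9*, *Pacsin1*, *Ralgps2*, *H2-DMb2*, *Creb1*, *Nfya*, *Ifi30*, *Cd3d*, *Cd3g*, *Cd83*, *Epcam* and *H2-Ea-ps*, were chosen after values were seen. Replicate numbers in the thymus did not pair samples. Genes with few counts have imprecise values: depth covers counting error only. Alternatives were other normalizations, no filter, FDR below 0.05, 1 fit of all samples, a GC correction, a replicate block and leaving out each mouse.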

Additional observations from a re-analysis of the deposited data

Results flagged for a closer look

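The effect of CD25 KO differed between the tissues by a direct test for 7 of 33 named genes checked (edgeR's quasi-likelihood test; the splenic log2 fold change less the thymic one). They were *Ighm* at 1.27 (adjusted p = 1.47e-06), *Ighd* at 2.41 (adjusted p = 5.93e-05), *Pou2af1* at 1.73 (adjusted p = 2.97e-04), *H2-DMb2* at 1.25 (adjusted p = 0.00577), *Xbp1* at 0.49 (adjusted p = 0.00127), *Cd3e* at 0.69 (adjusted p = 9.91e-06) and *Cd4* at 0.58 (adjusted p = 1.73e-04). All 7 values were above 0. Over all 18686 genes tested 6.98% passed, 840 above 0 and 465 below. Some of the 33 genes were named because they were called within a tissue, so the shares cannot be set against each other.

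A single mouse lay apart from its group, by the share of the group's range taken by its gap to the next mouse, in 7 of 132 groups checked over the 33 genes, where chance gives about 1 in 20. *Cd79a* was at 6.65 CPM in splenic WT mouse 2, against 4.86 to 5.10 in the others. *Cd22* was at 0.392 CPM in thymic WT mouse 1, against 0.0849 to 0.142, and at 17.3 CPM in splenic CD25 KO mouse 4, against 23.5 to 24.1. *Lyz2* was at 10.4 CPM in thymic CD25 KO mouse 5, against 0.174 to 1.09. *H2-DMa*, the alpha chain of the peptide-loading molecule, was at 27.1 CPM in splenic WT mouse 2, against 23.5 to 23.8. *Xbp1* was at 60.4 CPM in splenic WT mouse 1, against 58.2 to 58.4, and *Cd4* at 746 CPM in splenic CD25 KO mouse 2, against 681 to 686.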

How the results depend on the processing

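Of 640 single-gene values under alternatives, 613 kept their direction and side of the threshold, 8 lost the call, 5 gained it and 14 turned direction. The cause was not tested. *Ighm* stayed called under every alternative run in both tissues, at log2 fold changes of -0.85 to -0.74 for thymic and 0.38 to 0.51 for splenic Tregs. Levels relative to *Cd3e*, on which splenic *Ighm* and *Cd74* overlapped between the groups, were not tested. All 14 turns were of values near 0 that were never called. In the thymus they were *Cd79a* at 0.0398 with the GC correction and 0.0358 with the replicate block and GC correction, and *Cd79b* at 0.0117 with the GC correction. Leaving out each thymic mouse gave -0.126 to 0.00467 for *Cd79a*, above 0 without CD25 KO mouse 2, and -0.250 to 0.0180 for *Cd79b*, above 0 without CD25 KO mouse 4 or 5. In the spleen they were *Cd79b* at -0.00974 and *Ciita* at -0.0205 with upper-quartile normalization. Leaving out each splenic mouse gave -0.0497 to 0.0814 for *Cd79b*, below 0 without CD25 KO mouse 2, and -0.0818 to 0.0731 for *Ciita*, below 0 without WT mouse 1, 3 or 4 or CD25 KO mouse 1 or 3. The splenic count of 2 called members became 1 with all 18 samples in 1 fit, which lost *Cd74*. The count for the difference between tissues, 1, became 2 at FDR below 0.05 and ranged from 1 to 2 when leaving out each mouse, with *H2-Ab1* added without thymic WT mouse 5. In the comparison of WT tissues *Cd79a* had adjusted p-values of 0.00114 to 0.0249 over alternatives, *Cd74* 5.45e-04 to 0.0138 and *H2-Eb1* 0.00178 to 0.09.

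Over all genes, 1047 were called in the thymus, 2763 with DESeq2, 3951 at FDR below 0.05, 2881 with all samples in 1 fit and 371 to 1087 when leaving out each mouse. In the spleen 1651 became 3001 at FDR below 0.05 and 795 in 1 fit, and for the difference between tissues 1305 became 2188 with DESeq2, 3149 at FDR below 0.05 and 817 to 1489 when leaving out each mouse. Upper-quartile normalization gave 808 higher and 440 lower in the thymus (539 and 508 otherwise) and 616 and 669 for the difference (840 and 465 otherwise). Same-numbered thymic samples had deviations correlated at -0.24 to 0.14, and 1 of 5 matched its own number best; with the replicate block 1 member and 209 genes were called, and 212 genes with the GC correction added.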
